A study of Mus musculus with 6 samples.

Results

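Interferon-stimulated genes are the genes that cells switch on once an interferon has bound its receptor. The set described here was a written list of 41 genes of the type I interferon response, matched by gene symbol, and 39 of them were among the 17469 genes of the deposited count table. The other 2, Mx1 and Mx2, were not analysed here. All 39 passed the filter on low counts, as did 12701 genes in all, and the lowest estimated count of a member in any library was 46.

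RNA was sequenced from tdTomato+ cells, sorted by flow cytometry from cultured bone marrow stromal cells (BMSCs) of 6-month-old mice that received no treatment. The study calls them osteoblast (OB) progenitors, a name that the marker levels below go against, so they are called sorted cells here. The control group was Ocn-Cre;Ai9 (3 libraries) and the other group TgAPPswe;Ocn-Cre;Ai9 (3 libraries), called TgAPPsweOCN;Ai9 below. Both carried Ocn-Cre, a Cre recombinase under the osteocalcin promoter of OB-lineage cells, and Ai9, a reporter that gives tdTomato after Cre has acted. In the second group Cre also opened a human APPswe transgene under the CAG promoter, which encodes the Swedish mutant of the amyloid precursor protein. The sources used here did not tie single libraries to mice or cultures, so the p-values measure the spread between these libraries, which may be technical.

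Library depth ranged from 19340810 to 19801060 estimated counts in control and from 21677461 to 22037840 in TgAPPsweOCN;Ai9. The App gene, to which the transgene may add reads that the count table cannot separate, stood at 279 ± 3.5 FPKM (SD, n = 3) in control and 330 ± 4.18 (SD, n = 3) in TgAPPsweOCN;Ai9 cells. FPKM counts the fragments of a gene relative to its length and to the fragments mapped in the library. The sorted cells expressed myeloid genes strongly: the median level of 15 myeloid markers was between 407 and 453 FPKM in the control libraries, against 5.47 to 5.91 FPKM for 15 stromal and osteoblast-lineage markers, and Bglap, which encodes osteocalcin, was between 0 and 1.25 FPKM in the 6 libraries. The summed myeloid markers lay between 18242 and 19073 FPKM in control and between 15580 and 19336 FPKM in TgAPPsweOCN;Ai9 libraries, and the summed stromal markers between 1140 and 1226 FPKM and between 655 and 918 FPKM. Lyz2 alone, at 8888 to 9263 FPKM in control and 5379 to 8724 FPKM in TgAPPsweOCN;Ai9 libraries, made up a large share of the myeloid sum, and single myeloid markers moved both ways. Of the 15, 5 were called up (8.82% of all tested genes), namely Aif1 (log2 fold change 2.04), Adgre1 (1.89), Fcgr1 (1.30), Itgam (1.26) and Fcer1g (1.11), and 4 down (9.14% of all tested genes), namely Mrc1 (−2.38), Cx3cr1 (−2.05), Csf1r (−1.49) and Cd68 (−1.26), under the thresholds given below. Spp1 alone made up 870 to 1000 FPKM of the stromal sum in control and 481 to 672 FPKM in TgAPPsweOCN;Ai9 libraries. Of the 14 stromal markers tested 0 were called up or down, 2 were raised by the adjusted p alone (32.4% of all tested genes), namely Col3a1 and Alpl, and 4 lowered (31.5%). The part of these markers in the differences given below was not tested, and in RNA from a mixed sort, fewer cells of a type and less RNA per cell cannot be told apart.

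Type I interferons signal through the receptor chains IFNAR1 and IFNAR2 and the kinases JAK1 and TYK2, which phosphorylate STAT2. With IRF9, STAT2 is part of a complex that binds the interferon-stimulated response element (ISRE) in the promoters of its targets, among them Irf7, which in turn drives further interferon genes. The products of these genes sense foreign nucleic acid, degrade or edit RNA, hold viruses at membranes, and attach or remove the ubiquitin-like protein ISG15. Interferon gamma uses another receptor, and promoters of its targets hold the gamma-activated site (GAS).

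The promoters of 5 members are shown because they hold letters that the choice of the list did not use and that a part of the members have. Each is the 250 bases before the RefSeq start of the gene in build GRCm38.p6, written 5′ to 3′ on the strand of the gene. In the first 4, capitals mark matches to the letters GAAA, any 2 bases, GAAA, a core of the ISRE, on either strand (TTTC, any 2 bases, TTTC when read on the other), and in Irf1 they mark the single match to TTCNNNGAA, the palindromic core of the GAS. The windows are Isg15 (Entrez 100038882, chr4:156200819-156201068, minus strand), Ifit1 (Entrez 15957, chr19:34640639-34640888, plus strand), Rsad2 (Entrez 58185, chr12:26456453-26456702, minus strand), Bst2 (Entrez 69550, chr8:71537473-71537722, minus strand) and Irf1 (Entrez 16362, chr11:53769764-53770013, plus strand).
Isg15: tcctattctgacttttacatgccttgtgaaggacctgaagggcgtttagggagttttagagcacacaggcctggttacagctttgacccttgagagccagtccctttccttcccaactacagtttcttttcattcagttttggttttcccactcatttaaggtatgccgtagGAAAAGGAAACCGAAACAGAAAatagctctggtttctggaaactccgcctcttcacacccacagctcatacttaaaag
Ifit1: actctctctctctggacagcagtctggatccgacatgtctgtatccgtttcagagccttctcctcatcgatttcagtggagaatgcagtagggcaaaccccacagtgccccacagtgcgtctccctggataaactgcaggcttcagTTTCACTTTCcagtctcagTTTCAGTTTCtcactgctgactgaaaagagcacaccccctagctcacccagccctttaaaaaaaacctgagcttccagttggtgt
Rsad2: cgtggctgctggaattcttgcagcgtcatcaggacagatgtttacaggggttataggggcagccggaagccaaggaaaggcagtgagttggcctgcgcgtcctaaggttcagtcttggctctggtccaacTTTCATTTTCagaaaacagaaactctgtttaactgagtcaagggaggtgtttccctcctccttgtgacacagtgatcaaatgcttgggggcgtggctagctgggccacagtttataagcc
Bst2: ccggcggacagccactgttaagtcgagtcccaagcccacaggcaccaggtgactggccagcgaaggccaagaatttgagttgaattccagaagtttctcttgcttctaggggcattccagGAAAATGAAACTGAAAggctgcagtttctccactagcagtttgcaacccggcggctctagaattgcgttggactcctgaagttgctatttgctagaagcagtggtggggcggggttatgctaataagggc
Irf1: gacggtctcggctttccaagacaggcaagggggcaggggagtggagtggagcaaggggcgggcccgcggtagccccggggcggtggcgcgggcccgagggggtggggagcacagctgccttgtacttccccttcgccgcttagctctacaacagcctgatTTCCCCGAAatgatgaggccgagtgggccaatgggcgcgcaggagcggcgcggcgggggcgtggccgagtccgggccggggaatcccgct

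The Isg15 window held 3 overlapping matches in 1 run, which ended 56 bases before the start of the gene. Ifit1 held 2 matches, the nearer 75 bases before the start, and Bst2 held 2 that overlap. A window was at hand for 31 of the 39 members, and 10 of them (32.3%) held the ISRE core: Isg15, Ifit1, Ifit3, Oas1a, Oas3, Rsad2, Bst2, Stat2, Trim30a and Ifi203. The same letters were in 2.98% of 32851 promoter windows of that length and in 3.46% of the 10117 tested genes with a window. TTCNNNGAA was in 6 of the 31 members (19.4%), namely Irf1, Isg20, Ifit2, Eif2ak2, Oas1a and Bst2, against 7.02% of all windows and 7.17% of the tested genes. These are matches of letters, counted without a test, and binding was not measured. No window was at hand for Dhx58, Ifi204, Oas2, Parp14, Parp9, Rtp4, Usp18 and Zbp1.

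The comparison asked whether these genes differed between the sorted cells of control and TgAPPsweOCN;Ai9 mice. They were higher in TgAPPsweOCN;Ai9 cells nearly throughout: 33 of 39 members were called up and 0 called down, where a call needed an adjusted p of at most 0.05 together with a log2 fold change of 1 or more, up or down (edgeR's quasi-likelihood test, Benjamini-Hochberg over all 12701 genes). Among all tested genes 8.82% were called up and 9.14% called down. By the adjusted p alone 38 members were raised, against 32.4% of all tested genes, and 1 member, Irf1, was lowered, against 31.5%. Irf1 was also the 1 member lower at an unadjusted p under 0.05. DESeq2 called 0 members down, and 1113 genes down in all. The median log2 fold change of the members was 1.73 (3.32-fold), that of all tested genes −0.02, and single members ranged from −0.48 for Irf1 to 4.37 for Usp18. At least a 4-fold rise was seen in 17 members, against 3.59% of tested genes, and at least an 8-fold rise in 9, against 1.95%.

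Before these values are read beside FPKM, the scaling needs a word. The fold changes used TMM scaling, which sets aside the largest differences, whereas scaling by library size alone moved the median of all tested genes to −0.23 and that of the members to 1.52, with no member changing direction. On TMM-scaled counts relative to library total (CPM), every TgAPPsweOCN;Ai9 library lay above every control library for 38 members, against 34.8% of all tested genes, and below for Irf1, against 34.9%. In the deposited FPKM the same held for 36 members (24.0% of all tested genes) and for Irf1 (48.3%), and the genotypes overlapped for Ifi203 and Nmi.

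**Figure D1:**
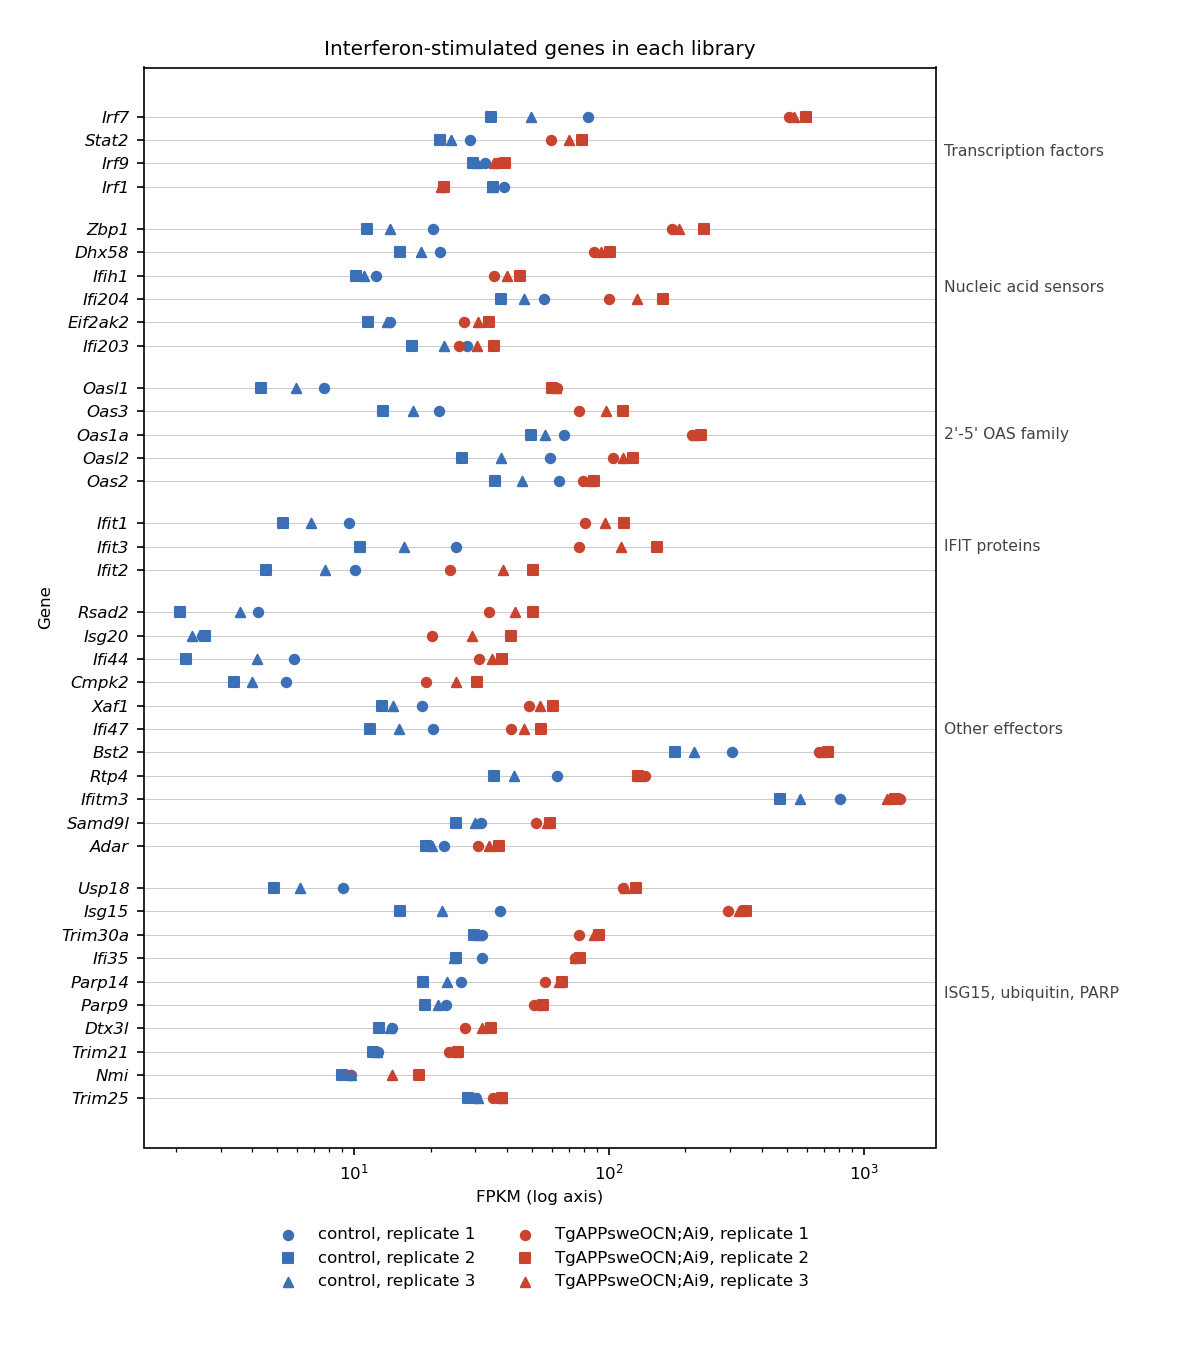
Level of each of the 39 interferon-stimulated genes in each of the 6 libraries, as deposited FPKM on a log axis, with genes grouped by role and 1 point per library. The TgAPPsweOCN;Ai9 points lie to the right of the control points for 36 genes, to the left for Irf1, and among them for Ifi203 and Nmi.

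The transcription factors of the response did not move alike. Irf7, the factor that widens an interferon response, was at 82.89, 34.67 and 49.56 FPKM in the control libraries and at 508.08, 594.02 and 531.69 FPKM in the TgAPPsweOCN;Ai9 libraries. The groups were far apart, with a log2 fold change of 3.50 ± 0.36 (SE) and an adjusted p of 0.000708. Stat2, which has no close substitute in type I signalling, was at 28.61, 21.74 and 24 FPKM in control and at 59.24, 78.63 and 69.99 FPKM in TgAPPsweOCN;Ai9 cells (log2 fold change 1.70 ± 0.12, adjusted p = 8.22e-06). Irf9, the DNA-binding partner of STAT2, rose little, from 32.75, 29.22 and 30.44 FPKM to 36.57, 39.13 and 35.62 FPKM (log2 fold change 0.48 ± 0.06, adjusted p = 0.000119). Irf1, which is induced most directly by interferon gamma, went the other way. It stood at 38.74, 35.14 and 34.71 FPKM in control and at 22.33, 22.54 and 22.07 FPKM in TgAPPsweOCN;Ai9 cells, which is −0.48 ± 0.06 in log2 fold change with an adjusted p of 0.000136. Irf1 remained lowered under all 15 alternative fits, with log2 fold changes between −0.69 and −0.43.

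All 6 sensors and sensor kinases were raised (32.4% of all tested genes), 5 of them past the fold threshold (8.82%). Zbp1, a sensor of Z-form nucleic acid that can start necroptosis, was at 20.46, 11.26 and 13.91 FPKM in control and at 176.43, 237.12 and 187.85 FPKM in TgAPPsweOCN;Ai9 cells (log2 fold change 3.96 ± 0.29, adjusted p = 0.000122). Every TgAPPsweOCN;Ai9 library thus stood above every control library, as in 24.0% of all tested genes in FPKM. Dhx58 (the LGP2 helicase) rose by a log2 fold change of 2.57 ± 0.12 and its relative Ifih1 (MDA5), which senses long double-stranded RNA, by 2.12 ± 0.09. Ifih1 had the smallest adjusted p of the 39 members, 7.4e-08, with 12.22, 10.19 and 10.92 FPKM in control and 35.49, 44.91 and 39.72 FPKM in TgAPPsweOCN;Ai9 cells. Eif2ak2 (PKR), the kinase that halts translation on double-stranded RNA, rose by 1.46 ± 0.10. The 2 genes of the p200 family, which binds DNA, differed in size: Ifi204 rose by 1.70 ± 0.22 (adjusted p = 0.000817), while Ifi203 had a log2 fold change of 0.71 ± 0.22 and an adjusted p of 0.0361. Ifi203 overlapped between the genotypes in FPKM, at 27.84, 16.92 and 22.52 FPKM in control and at 25.87, 35.37 and 30.36 FPKM in TgAPPsweOCN;Ai9 cells, and its adjusted p exceeded 0.05 in 9 of 15 alternative fits, reaching 0.12.

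The 2′-5′ oligoadenylate synthetases make the second messenger that activates RNase L, and the OASL proteins are their relatives. All 5 were called up (8.82% of all tested genes), with a median log2 fold change of 2.13. Oasl1 changed most, from 7.61, 4.32 and 5.95 FPKM to 62.85, 59.79 and 61.85 FPKM (log2 fold change 3.58 ± 0.18, adjusted p = 3.6e-06), whereas its neighbour Oasl2 rose by 1.73 ± 0.31. Oas3 rose by 2.69 ± 0.23 and Oas1a by 2.13 ± 0.10. Oas1a was the most abundant of the 5 in TgAPPsweOCN;Ai9 cells at 220 ± 9.29 FPKM (SD, n = 3), up from 57.6 ± 8.89 (SD, n = 3). Oas2 lay at the fold threshold: control libraries were at 63.56, 35.64 and 45.81 FPKM and TgAPPsweOCN;Ai9 libraries at 79.06, 87.34 and 85.45 FPKM, which is 1.04 ± 0.21 in log2 fold change (adjusted p = 0.00556). The nearest libraries of the 2 genotypes were close for Oas2, and its log2 fold change was below 1 in 6 of 15 alternative fits, down to 0.82.

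The IFIT proteins bind foreign RNA ends and block its translation. Ifit1 was at 9.54, 5.26 and 6.81 FPKM in control and at 80.46, 114.3 and 96.5 FPKM in TgAPPsweOCN;Ai9 cells, which is 3.96 ± 0.25 in log2 fold change with an adjusted p of 3.77e-05. Ifit3 went from 25.16, 10.57 and 15.78 FPKM to 76.68, 154.12 and 111.75 FPKM (log2 fold change 2.94 ± 0.44, adjusted p = 0.00348). Ifit2 went from 10.08, 4.51 and 7.71 FPKM to 23.88, 50.27 and 38.39 FPKM (log2 fold change 2.53 ± 0.42, adjusted p = 0.00506). In all 3 genes the libraries kept the same order within a genotype, with control replicate 1 and TgAPPsweOCN;Ai9 replicate 2 highest. The 3 genes lie within 99.5 kb of chromosome 19, between 34550550 and 34650009. Ifit1 shares its annotated span with Ifit1bl1, whose estimated counts were whole in all 6 libraries, as were those of Ifit2. Estimated counts were fractional for Ifit1 in 5 libraries and for Ifit3 in 6, so some of their reads may be divided with other genes or transcripts.

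Of the 11 other antiviral effectors, 10 were called up (8.82% of all tested genes). Rsad2 (viperin), which makes a chain-terminating nucleotide, was at 4.21, 2.08 and 3.57 FPKM in control and at 33.88, 50.52 and 42.91 FPKM in TgAPPsweOCN;Ai9 cells (log2 fold change 3.90 ± 0.29, adjusted p = 0.00011). Cmpk2, a nucleotide kinase that is its neighbour within 37.1 kb of chromosome 12 (26442743 to 26479837), went from 5.42, 3.38 and 4 FPKM to 19.25, 30.41 and 25.28 FPKM (log2 fold change 2.77 ± 0.23). The 2 neighbours showed the same order of libraries in TgAPPsweOCN;Ai9 cells. Isg20, an RNA exonuclease, was the member with the lowest level in control, at 2.54, 2.61 and 2.31 FPKM, and reached 20.26, 41.55 and 28.99 FPKM (log2 fold change 3.72 ± 0.29, adjusted p = 4.48e-05). Its control libraries differed little, unlike those of most members. Ifi44 rose by 3.31 ± 0.34, Xaf1, which can promote apoptosis, by 2.02 ± 0.17, the immunity-related GTPase Ifi47 by 1.82 ± 0.22, and Rtp4 by 1.72 ± 0.21.

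Membrane proteins were the most abundant members. Ifitm3, which stops viruses from entering through endosomes, was the highest of the 39 in both genotypes, at 805.51, 471.13 and 561.26 FPKM in control and at 1389.22, 1322.19 and 1239.28 FPKM in TgAPPsweOCN;Ai9 cells (log2 fold change 1.32 ± 0.20, adjusted p = 0.00152). Bst2 (tetherin), which holds budding viruses at the cell surface, came next with 303.43, 181.28 and 216.44 FPKM and 665.49, 725.4 and 684.01 FPKM (log2 fold change 1.78 ± 0.19, adjusted p = 0.000208). In both the lowest TgAPPsweOCN;Ai9 library exceeded the highest control library, as in 24.0% of all tested genes in FPKM. Samd9l, which restrains translation, rose by 1.17 ± 0.09, but by 0.94 to 0.96 in 4 alternative fits. Adar, the enzyme that edits adenosine in double-stranded RNA, was raised below the fold threshold, from 22.55, 19.19 and 20.31 FPKM to 30.81, 37.24 and 33.92 FPKM (log2 fold change 0.93 ± 0.08, adjusted p = 7.61e-06).

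The ISG15 system held the largest rise. Usp18, the protease that removes ISG15 and also damps the interferon receptor, went from 9.07, 4.86 and 6.13 FPKM in control to 113.94, 127.44 and 115.73 FPKM in TgAPPsweOCN;Ai9 cells. This was a log2 fold change of 4.37 ± 0.21 (20.6-fold, adjusted p = 5.73e-06), and it was the 106th largest rise of the 12701 tested genes. Isg15 itself went from 37.42, 15.15 and 22.2 FPKM to 293.22, 344.35 and 324.46 FPKM (log2 fold change 3.90 ± 0.34, adjusted p = 0.000311). Both genes had every TgAPPsweOCN;Ai9 library above every control library in FPKM, as had 24.0% of all tested genes. Isg15 moved from the 15th to the 4th highest level among the members. The ubiquitin ligases changed less: Trim30a by 1.68 ± 0.07, the antibody receptor Trim21 by 1.24 ± 0.06, and Trim25, which modifies the sensor RIG-I, by 0.54 ± 0.06 (adjusted p = 3.23e-05). Trim21 was at 0.97 in 2 alternative fits.

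The PARP partners rose by similar amounts. Parp9, Dtx3l and Parp14, which lie within 141 kb of chromosome 16 (35831892 to 35972621), rose by 1.57 ± 0.08, 1.42 ± 0.08 and 1.66 ± 0.12, and the proteins of Parp9 and Dtx3l act as a pair. Parp9 and Dtx3l overlap by their ends, and without the strand setting of the counting their reads there cannot be told apart. Ifi35 went from 31.8, 25.22 and 24.69 FPKM to 74.01, 76.83 and 73.48 FPKM (log2 fold change 1.67 ± 0.10, adjusted p = 6.97e-07). Its binding partner Nmi changed less, from 9.78, 9.02 and 9.73 FPKM to 9.69, 17.97 and 14.08 FPKM (log2 fold change 0.73 ± 0.19, adjusted p = 0.0102). In FPKM the lowest TgAPPsweOCN;Ai9 library for Nmi fell among the control libraries, and its adjusted p exceeded 0.05 in 4 of 15 alternative fits, reaching 0.0806.

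**Figure D2:**
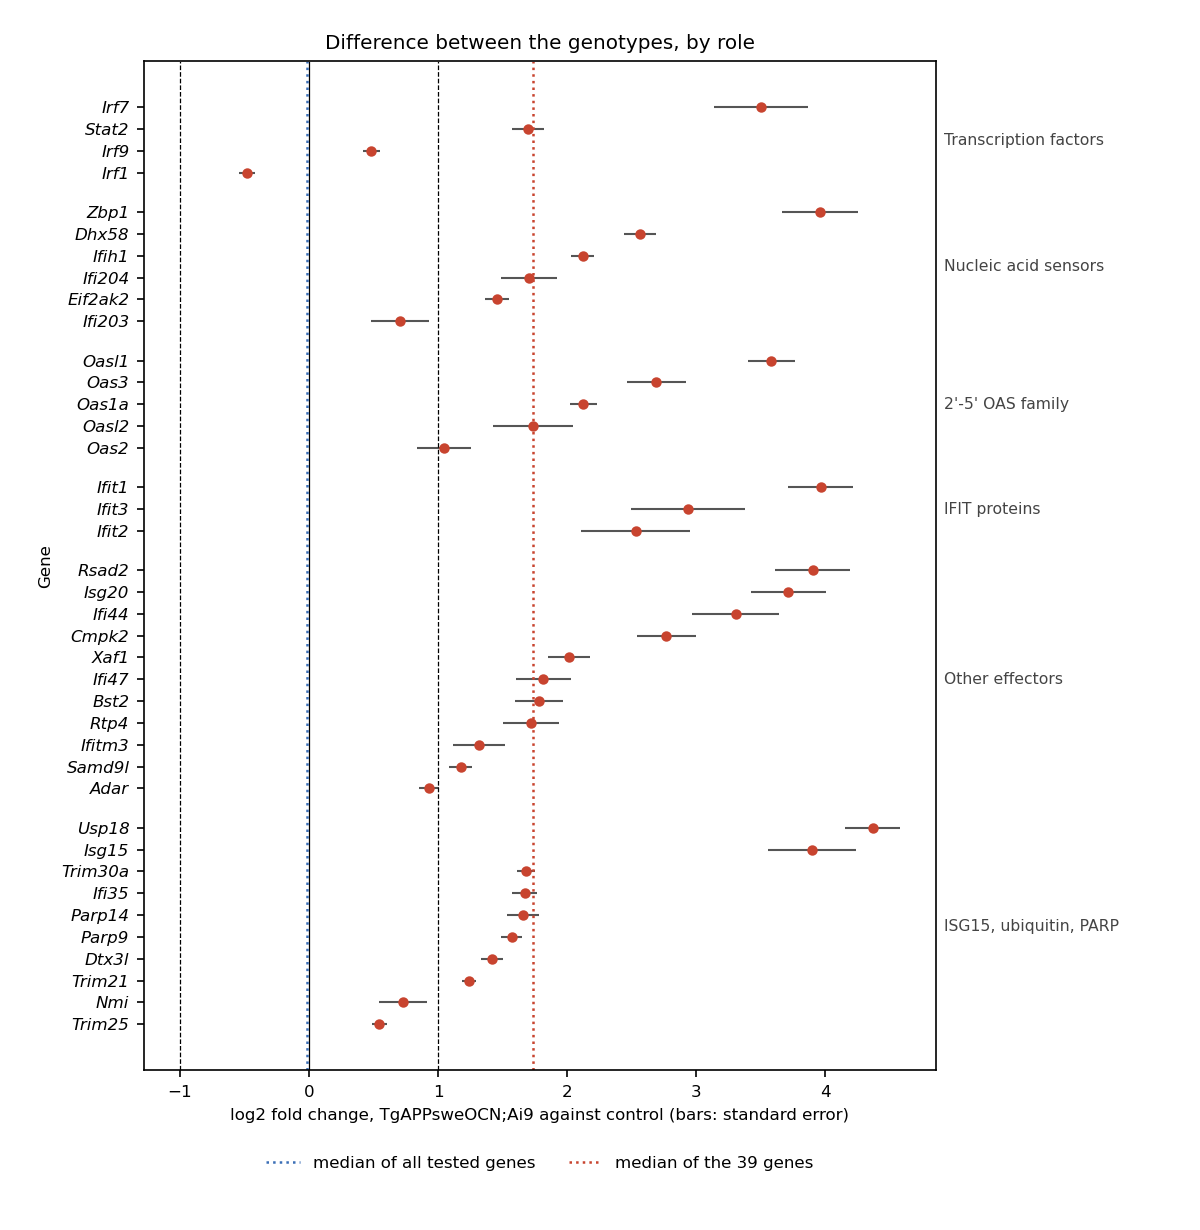
Log2 fold change of each member between TgAPPsweOCN;Ai9 and control cells (points) with its standard error (bars), by role. Dashed lines mark a log2 fold change of 1 in either direction, and dotted lines mark the medians of all tested genes (−0.02) and of the 39 members (1.73). Irf1 alone is left of 0.

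Large rises came from low control levels, with exceptions. The 9 members that rose at least 8-fold had mean control levels between 2.49 and 55.7 FPKM with a median of 6.69, while the other 30 lay between 4.27 and 613 FPKM with a median of 22.6. Irf7 was the exception at the top of the first range, the 4th highest of the 39 in control and the 3rd highest in TgAPPsweOCN;Ai9 cells. As the control values enter both quantities, this is a description. Members with a match to the ISRE core had a median log2 fold change of 2.41 (10 genes), and the 21 with a window but no match 1.67. The ranges overlapped widely, from 0.71 (Ifi203) to 3.96 (Ifit1) with a match and from −0.48 (Irf1) to 3.72 (Isg20) without. For 12 members some estimated counts were fractional, as arises when reads are divided between genes or transcripts. Their median log2 fold change was 1.76, and that of the 27 members with whole counts was 1.73. Stat2, Eif2ak2, Rtp4 and Adar also overlap other annotated genes in part.

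Control libraries differed from each other in these genes more than in others. Control replicate 1 was the highest control library for 37 of the 39 members on TMM-scaled CPM, whereas it was the highest for 38.9% of all tested genes. Control replicate 2 was the lowest for 36 members, against 33.1% of all tested genes. Between the highest and the lowest control library the members had a median ratio of 1.57, reaching 2.66, against 1.15 for all genes. The TgAPPsweOCN;Ai9 libraries were closer to each other, with a median ratio of 1.15 for the members and 1.15 for all genes. The spread was wider in control for 33 of 39 members, against 6206 of 12621 genes above 0 in every library. Replicate 2 was the highest TgAPPsweOCN;Ai9 library for 32 members and replicate 1 the lowest for 32, against 35.8% and 37.7% of all tested genes. Replicate 3 was the highest for 23.2% of all tested genes and the lowest for 24.3%. Whether the libraries of a genotype were independent was not tested. Without control replicate 1 the members' median log2 fold change was 2.01, and without control replicate 2 it was 1.62.

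The sum of low-level neutrophil transcripts followed the same order of libraries, though not each marker did. The summed FPKM of 7 neutrophil markers was 51.5, 12.3 and 28.9 in control replicates 1, 2 and 3 and 18.1, 49.4 and 33.9 in the TgAPPsweOCN;Ai9 replicates. The summed level of the 39 members was 2107, 1314 and 1566 FPKM in control and 5027, 5712 and 5201 FPKM in TgAPPsweOCN;Ai9 cells. Within each genotype the ranking of libraries was the same for both sums, but the neutrophil sums overlapped between the genotypes and those of the members did not. Of the 6 neutrophil markers tested 1 was raised by the adjusted p alone (32.4% of all tested genes) and 0 lowered (31.5%), the 1 being Camp with a log2 fold change of 3.02 ± 0.57, and Ly6g was at 0 to 0.06 FPKM. S100a8 departed from that order in part, at 10.49, 2.51 and 10.58 FPKM in control and at 12.52, 13.21 and 11.95 FPKM in TgAPPsweOCN;Ai9 cells. The part of these transcripts in the members' spread was not tested. Markers of plasmacytoid dendritic cells, strong makers of type I interferon, were at unlike levels. Siglech was between 0 and 0.15 FPKM and Ccr9 between 0.04 and 0.08 FPKM in the 6 libraries. Tcf4 was at 39.61, 32.48 and 36.06 FPKM in control and at 16.16, 19.43 and 18.72 FPKM in TgAPPsweOCN;Ai9 cells (log2 fold change −0.85 ± 0.08). Spib was called up from 0, 0 and 0.06 FPKM to 0.57, 0.45 and 0.44 FPKM, and Runx2, at 1.3 to 2.13 FPKM, did not pass. Of the 6 in the list the last, Bst2, is itself one of the members, at 181.28 to 725.4 FPKM. The part of such cells in the results was not tested.

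**Figure D3:**
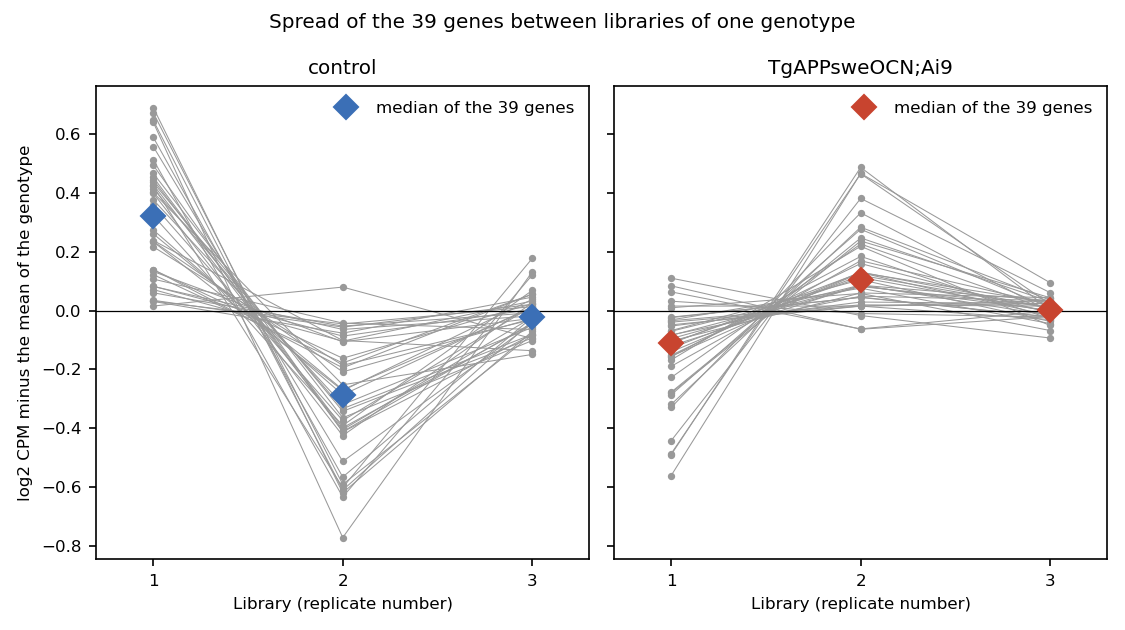
Log2 CPM of each of the 39 members minus its mean over the genotype, in each library of control (left) and TgAPPsweOCN;Ai9 cells (right). Thin lines join the 3 libraries of a gene and carry no order in time, and diamonds are the medians. The medians were 0.32, −0.29 and −0.02 in control and −0.11, 0.10 and 0.00 in TgAPPsweOCN;Ai9 cells.

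Upstream of these genes the ligands were barely detected. Of the 21 interferon genes listed, 5 were in the table and none passed the count filter. Ifnb1, encoding interferon beta, had 0 counts in each control library and 8, 8 and 7 counts in the TgAPPsweOCN;Ai9 libraries, at least 2.29-fold higher against a floor of 3 counts per library. Ifng had 4, 0 and 0 counts in TgAPPsweOCN;Ai9 cells and 0 in control, and Ifna16, Ifnz and Ifnk had at most 1 count, after rounding, in any library. At this depth 3 counts stood for 0.136 to 0.155 CPM, so lower levels of these ligands were not detectable.

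Both chains of the type I receptor were expressed and lower in TgAPPsweOCN;Ai9 cells, while Ifnlr1, a chain of the interferon lambda receptor, had at most 2 counts in any library and was not tested. Of 8 receptor and transducer genes tested, 1 was called up (8.82% of all tested genes) and 1 down (9.14%), and by the adjusted p alone 3 were raised (32.4%) and 4 lowered (31.5%). Ifnar1 went from 53.41, 52.66 and 56.05 FPKM to 31.63, 27.76 and 29.7 FPKM (log2 fold change −0.68 ± 0.07, adjusted p = 3.6e-05). Ifnar2 went from 173.47, 167.81 and 171.73 FPKM to 92.81, 94.31 and 91.46 FPKM (log2 fold change −0.79 ± 0.05, adjusted p = 1.4e-06). Both chains were lower in every TgAPPsweOCN;Ai9 library than in every control library, as were 48.3% of all tested genes in FPKM (34.9% on CPM). Ifngr1, the ligand-binding chain of the interferon gamma receptor, fell by 1.10 ± 0.10 on the log2 scale and Il10rb by 0.74 ± 0.06. Jak2, a kinase of the interferon gamma receptor, went from 9.51, 9.12 and 9.99 FPKM to 25.32, 17.1 and 20.98 FPKM (log2 fold change 1.42 ± 0.14, adjusted p = 6.23e-05). The small rises of Ifngr2 (0.30) and Tyk2 (0.25) did not pass under library size scaling, at 0.09 and 0.03, and Jak1 did not pass at 0.11 (adjusted p = 0.0983).

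Of the other interferon regulatory factors and their partners, 0 of 7 tested were called up (8.82% of all tested genes) and 2 down (9.14%), and by the adjusted p alone 1 was raised (32.4%) and 6 lowered (31.5%). Irf8, the factor of monocyte and dendritic cell development, went from 81.27, 78.44 and 75.64 FPKM to 45.03, 52.99 and 48.48 FPKM (log2 fold change −0.47 ± 0.06, adjusted p = 0.000163). Irf3, which starts interferon beta transcription after viral sensing, had a log2 fold change of −0.38 ± 0.07 and Irf2, a repressor of interferon targets, one of −0.83 ± 0.05. Irf4 fell by 2.46 ± 0.29 on the log2 scale from 1.77, 0.98 and 1.03 FPKM to 0.2, 0.23 and 0.16 FPKM, and Irf2bp2 by 1.19 ± 0.05. These falls kept their direction and passed in all 15 alternative fits, while the rise of Irf5 (0.22 ± 0.07, adjusted p = 0.0148) was 0.00 under library size scaling and turned direction on log2 FPKM.

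Genes that sense nucleic acid and induce interferon were mixed. Of 14 tested, 3 were called up (8.82% of all tested genes) and 0 down (9.14%), and by the adjusted p alone 9 were raised (32.4%) and 2 lowered (31.5%). Ddx58 (RIG-I) went from 23.55, 16.23 and 19.39 FPKM to 64.93, 76.81 and 70.5 FPKM, which is 2.06 ± 0.13 in log2 fold change (adjusted p = 5.05e-06). It moved by nearly as much as its relative Ifih1. Ikbke, a kinase of IRF3 that is itself inducible, rose by 1.96 ± 0.10, and Samhd1, which lowers nucleotide pools, by 1.41 ± 0.08. Cgas and its adaptor Tmem173 (STING), of the cytosolic DNA pathway, had log2 fold changes of −0.34 ± 0.10 and −0.37 ± 0.09. The adaptor Mavs (0.05, adjusted p = 0.438), the kinase Tbk1 (0.08, adjusted p = 0.294) and Tlr9 (0.17, adjusted p = 0.461) did not pass, and each was below 0 under library size scaling. The small rises of Tlr3 (0.39 ± 0.07) and Tlr7 (0.33 ± 0.08) did not pass under that scaling either.

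Of 7 negative regulators tested, 6 were raised by the adjusted p alone (32.4% of all tested genes) and 2 were called up (8.82%). Socs1, which blocks JAK kinases, went from 2.37, 2.06 and 2.22 FPKM to 13.92, 13.59 and 13.96 FPKM (log2 fold change 2.85 ± 0.11, adjusted p = 5.22e-08), with little spread in either genotype. Socs3 rose by 1.68 ± 0.09. The phosphatases Ptpn11 and Ptpn6 were raised by 0.74 ± 0.06 and 0.52 ± 0.07, whereas under library size scaling Ptpn1 (0.19, adjusted p = 0.0486) turned direction and Ptpn2 (0.25, adjusted p = 0.0112) did not pass.

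**Figure D4:**
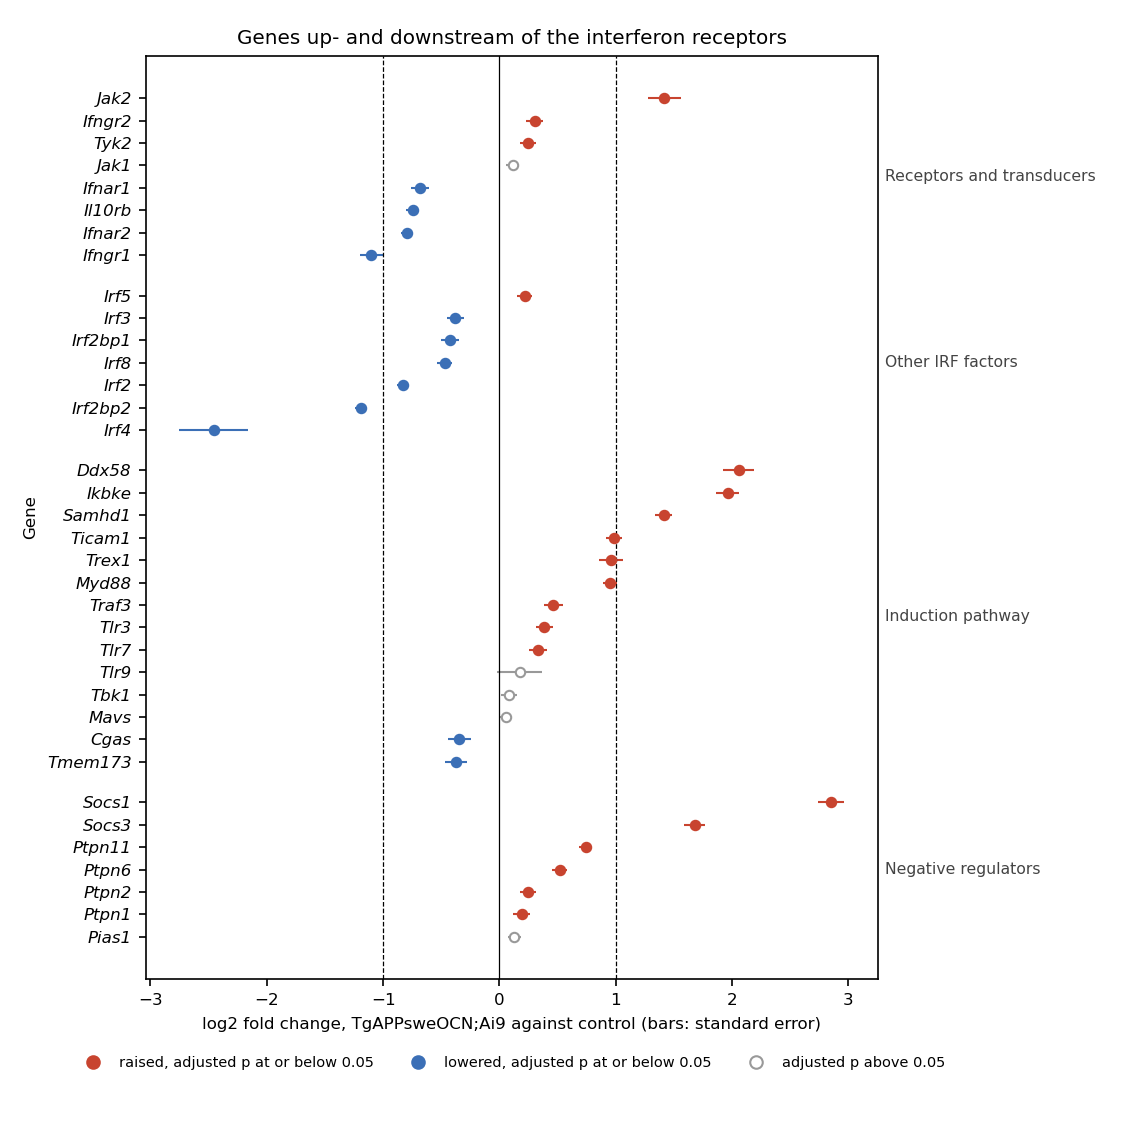
Log2 fold change with its standard error for the tested genes of the interferon pathway outside the 39 members, in 4 lists. Filled points passed at an adjusted p of 0.05 (red raised, blue lowered) and open points did not. Socs1 and Ddx58 stand at the right and the receptor chains Ifnar1, Ifnar2 and Ifngr1 left of 0.

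A second list of 38 interferon-stimulated genes, of which 35 were tested, had more rises than falls. Like the members, it was chosen with earlier results of these data known. Of the 35, 25 were called up (8.82% of all tested genes) and 1 down (9.14%). Their median log2 fold change was 1.52, against −0.02 for all tested genes. Cxcl10, a chemokine for activated T cells, went from 1.63, 0.88 and 1.35 FPKM to 11.64, 25.46 and 18.67 FPKM (log2 fold change 4.06 ± 0.36, adjusted p = 7.48e-05). Relatives of the members were among the rises, with Ifi205 at 3.94 ± 0.24, Oas1g at 2.12 ± 0.19 and Herc6, the main ISG15 ligase of mice, at 2.53 ± 0.08. Others did not follow their relatives. Ifitm2 was at 1143.18, 971.93 and 975.44 FPKM in control and at 864.25, 779.63 and 795.36 FPKM in TgAPPsweOCN;Ai9 cells (log2 fold change −0.13 ± 0.08, adjusted p = 0.222), and Ifitm1 did not pass either (−0.37 ± 0.20, adjusted p = 0.127). Of the 5 that did not pass, the other 3 were Mndal, Ifi207 and Ifi202b, all of the p200 family. For Ifi202b the TgAPPsweOCN;Ai9 libraries differed widely, at 10.78, 0.42 and 5.9 FPKM, against 7.6, 6.71 and 8.48 FPKM in control (log2 fold change −0.19 ± 0.94). Ifi27 was the 1 gene called down, from 66.76, 70.19 and 64.15 FPKM to 27.63, 24.32 and 24.12 FPKM (log2 fold change −1.17 ± 0.08, adjusted p = 1.84e-06), while its relative Ifi27l2a rose by 2.41 ± 0.30. Ifit3b, Ifit1bl2 and Oas1g, relatives of members, had fractional estimated counts in 5 or 6 libraries, as arises when reads are divided between genes or transcripts. Their rises may therefore not be separate from those of the members. How many reads such relatives share was not tested.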

How the data were processed

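RNA was measured in 6 libraries of sorted tdTomato+ BMSCs, 3 per genotype, on a DNBSEQ platform. The authors filtered out rRNA, adaptor and low-quality reads and used HISAT2 for mapping. Per gene the authors deposited estimated counts, and FPKM values to 2 decimals. The submitters' processing notes name mm10, HISAT2 2.0.4, Bowtie2 2.2.5, RSEM 1.2.12 and DESeq2 1.4.5; the annotation and the strand setting were not given in the sources used here. A further deposited table repeats the FPKM beside the authors' own comparison and was not used. Groups and replicate numbers came from the sample labels. The members and lists were chosen with earlier results of these data known.

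Estimated counts, fractional for 13.3% to 14.4% of genes per library, were rounded and tested with edgeR 4.0.16 under R 4.3.3 (robust quasi-likelihood test on genotype only, after filterByExpr and TMM) and Benjamini-Hochberg adjustment over 12701 genes. SE is the log2 fold change divided by the root of the F statistic. Calls used the thresholds of the study's methods. Depth set a floor of 3 counts (0.136 to 0.155 CPM), which covers counting error only. Every member and every tested gene of the written pathway lists could be named; the others are covered by counts, and 1 gene was left out of those lists and is not reported here. Alternatives were RLE factors, library size only, DESeq2 1.42.0, other filters (1 count in any library, 10 in every library), limma 3.58.1 on log2 FPKM plus 1 or 0.1 (FPKM filter 0.5), a replicate block, no fold threshold, no members with fractional counts, and leaving out each library. The procedure was tested on simulated data. RefSeq (GRCm38.p6) gave coordinates and promoter windows; the 50 transcribed bases of each were left out. Python 3.11.15, pandas 2.3.3, numpy 2.4.6 and matplotlib 3.10.9 were used.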

Additional observations from a re-analysis of the deposited data

How the results depend on the processing

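No member changed direction under the 15 alternative fits, 36 of 39 kept their call in every one, and 30 were called up in every one; the 3 others were Oas2, Samd9l and Trim21, and Ifi203 and Nmi did not pass at the adjusted p in some. Scaling by library size only gave a median log2 fold change of 1.52 over the members, with 31 members called up, and 842 genes called up and 1728 down in all, against 1120 and 1161. Limma on log2 FPKM gave a median of 1.53 (pseudocount 1, with and without the filter) and 1.55 (pseudocount 0.1), called 30 or 31 members up, and called 589 genes up with the filter and 592 without at a pseudocount of 1; the cause was not tested. With no fold threshold 4119 genes were called up, 3999 down, and 1 member was lowered (Irf1). Leaving out each library in turn gave members' medians from 1.62 to 2.01, the highest without control replicate 1, with 32 to 33 members called up, and 1086 to 1146 genes up and 1108 to 1245 down in all. DESeq2 called 33 members up, and 1247 genes up and 1113 down in all. Of the members, Oas2 alone changed its call when a library was left out (0.86 without control replicate 2 and 0.99 without control replicate 3).

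The replicate numbers did not pair the libraries: deviations from the group means correlated at 0.0127, 0.00664 and 0.141 between libraries of the same number. A replicate block gave 33 members called up, 37 raised, a median of 1.80, and 1107 genes up and 1142 down in all.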
